A study of Drosophila melanogaster with 3 samples.

Results

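The genes described are the cuticle protein genes of Drosophila melanogaster, 121 of the 13968 protein-coding genes on the main chromosomes. They were chosen by symbol alone: 70 begin with Cpr followed by a digit, 15 with Lcp, 7 with Ccp84, 1 is Pcp, 3 begin with Edg and 25 with Twdl. A further 3 genes with such symbols, Lcp1Psi, Lcp65APsi and TwdlU, are annotated as pseudogenes and were left out. The readout was the position of chromatin immunoprecipitation (ChIP-seq) peaks in whole white prepupae, the stage at which the puparium forms. The animals, males and females together and of unknown age per the labels, came from 1 transgenic line that stably expresses CG8632, named ZnT49B in the annotation, joined at its C-terminal end to GFP, and chromatin was precipitated with an antibody against GFP. There were 3 biological replicates of 1 group, so there was no comparison between conditions, and control samples were not analysed here. What drives the fusion gene, and in which cells, is not given in the sources used here, and since whole animals were used, the epidermis that makes cuticle was sampled together with every other tissue. No expression was measured, so neither the tissue composition nor the activity of the cuticle genes could be checked.

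Insect cuticle is a composite of chitin fibres and proteins that the epidermis secretes and rebuilds at each moult. Most proteins of the Cpr, Lcp, Ccp84, Pcp and Edg groups carry the Rebers-Riddiford chitin-binding domain, while the Tweedle (Twdl) proteins form a separate family that affects body shape. At puparium formation a pulse of ecdysone stops larval cuticle synthesis and starts tanning of the larval cuticle into the puparium, and pupal cuticle is laid down beneath it during the prepupal hours. The Lcp genes include larval cuticle genes, Pcp is a pupal cuticle gene nested in an intron of another gene, and Edg78E, Edg84A and Edg91 were named as ecdysone-dependent genes of the epidermis. Edg84A is a known target of the nuclear receptor FTZ-F1 in the prepupa.

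For each replicate a permissive list mixed peaks with background calls, with 30000 calls in replicate 1, 29322 in replicate 2 and 30000 in replicate 3. A set of 6469 peaks passed the irreproducible discovery rate (IDR) analysis and is called the IDR set. All 6469 were the strongest calls of the list made from the pooled replicates, so the IDR set has no replicates of its own, and the 3 replicate lists carry the spread. Each call has a summit, the position of its highest signal, and a signal value from the peak caller whose scaling is unknown. Calls are therefore given by rank within a list, rank 1 being the strongest. Read depth is unknown. In these permissive lists the median signal was 20, 14.9 and 20.6 in replicates 1 to 3, against 189 in the IDR set on its own pooled scale.

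The cuticle protein genes were nearly free of peaks at their starts. In the IDR set 1 of 121, Cpr12A, had a summit within 500 bp of an annotated transcript start, which is 0.826% with a Wilson 95% interval of 0.146% to 4.53% that covers counting error only. Over all 13968 protein-coding genes the share was 17.0%. The 13847 other genes stood at 17.1% (16.5% to 17.8%), and the interval of the cuticle genes lay wholly below it. Cuticle genes are short, with a median length of 0.957 kb against 2.18 kb, and 90.9% of them have a single start against 73.4% of the other genes, which leaves fewer windows in which a peak could fall. Among the 5704 other genes under 2 kb with 1 start, 8.75% (8.04% to 9.51%) had a summit within 500 bp, still above the interval of the cuticle genes. These intervals treat genes as independent, but the 121 cuticle genes form only 49 units, 15 clusters (defined below) and 34 isolated genes. No interval was computed over units, so the separation from the short genes holds only if the genes are taken as independent.

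Cpr12A, a gene of the Rebers-Riddiford family on the X chromosome, had its IDR peak at chrX:13543215-13543650 (build dm6), between genes, with the summit 210 bp upstream of the start. The peak was of low rank, 5332 of 6469, with a signal of 126. In the replicates the same place held a call of signal 50 in replicate 1, 33.9 in replicate 2 and 32.4 in replicate 3, a mean of 38.8 ± 9.74 (SD, n = 3). The call ranked 5417 and 4951 in replicates 1 and 2 and 8649 in replicate 3, so in replicate 3 it fell outside the strongest 6469. The 250 bases before the Cpr12A start are shown because they hold the summit, at base 13543433, and the single peak at a cuticle gene start. They were read from the NCBI RefSeq Release 6 genome, chrX:13543393-13543642, plus strand, and are 47.2% G or C. Capitals mark a TATAAA match that begins 45 bases before the start.
Cpr12A upstream: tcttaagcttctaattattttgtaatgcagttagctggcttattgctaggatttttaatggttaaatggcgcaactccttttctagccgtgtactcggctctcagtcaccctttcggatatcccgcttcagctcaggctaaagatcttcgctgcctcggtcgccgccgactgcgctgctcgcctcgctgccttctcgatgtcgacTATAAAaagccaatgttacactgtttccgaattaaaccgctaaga

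The replicate lists gave the same picture for strong calls. Among the strongest 6469 calls of each replicate, 2 of 121 cuticle genes had a call within 500 bp of a start in replicate 1, 1 in replicate 2 and 0 in replicate 3, where the shares of all genes were 17.3%, 17.3% and 18.3%. The cuticle genes had a mean of 0.826% ± 0.826 (SD, n = 3), the other genes 17.8% ± 0.596 and the short single-start genes 9.30% ± 0.255. The gap between cuticle genes and either comparison group was many times the spread between replicates, and no replicate of the cuticle genes reached the lowest replicate of the others, at 17.4%. The 2 genes with a strong call were Cpr12A, in replicates 1 and 2, and Cpr72Ea, in replicate 1 only, where the call lay 192 bp upstream at rank 5138 with a signal of 52.5. In replicate 3 the strongest call at the Cpr72Ea start was at rank 14900, 367 bp upstream.

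Weak calls were more common at cuticle gene starts than strong ones. With calls of any rank, 22 cuticle genes had one within 500 bp of a start in replicate 1, 21 in replicate 2 and 24 in replicate 3, where the shares of all genes were 42.2%, 35.8% and 40.7%. The mean for cuticle genes was 18.5% ± 1.26 (SD, n = 3), against 39.8% ± 3.37 for other genes and 24.3% ± 0.972 for short single-start genes. The cuticle genes were lower in each class down to rank 15000. Genes whose strongest call ranked 1 to 1000 made up 0% of the cuticle genes in every replicate and 4.09% ± 0.218 of the others. From there to rank 6469 the shares were 0.826% ± 0.826 and 13.7% ± 0.463, and for ranks 6470 to 15000 they were 4.13% ± 2.19 and 11.7% ± 2.15, with no overlap between replicates of the groups. Short single-start genes stood at 1.86% ± 0.176, 7.43% ± 0.371 and 6.42% ± 0.728 in these 3 classes, and in the last of them their replicates overlapped those of the cuticle genes. Beyond rank 15000 the order turned, with 13.5% ± 1.72 of the cuticle genes and 10.2% ± 1.21 of the others, and the cuticle genes were higher in all 3 replicates. In that last class the cuticle genes had 14.9%, 11.6% and 14% and the others 11.6%, 9.24% and 9.89%, so these groups met at 11.6% and were not separated by the spread between replicates. The short single-start genes had 8.89%, 8.50% and 8.35%, all below the lowest cuticle gene replicate. The excess over the other genes can follow from how the classes are made, since a gene with a strong call cannot also count as having a weak one. The strongest 6469 calls had already taken up 17.8% of the other genes and 0.826% of the cuticle genes. Ranks 6470 to 15000 took a further 11.7% and 4.13%. Shares among the genes left over were not computed, so the turn in order is not read as a preference for weak calls.

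**Figure D1:**
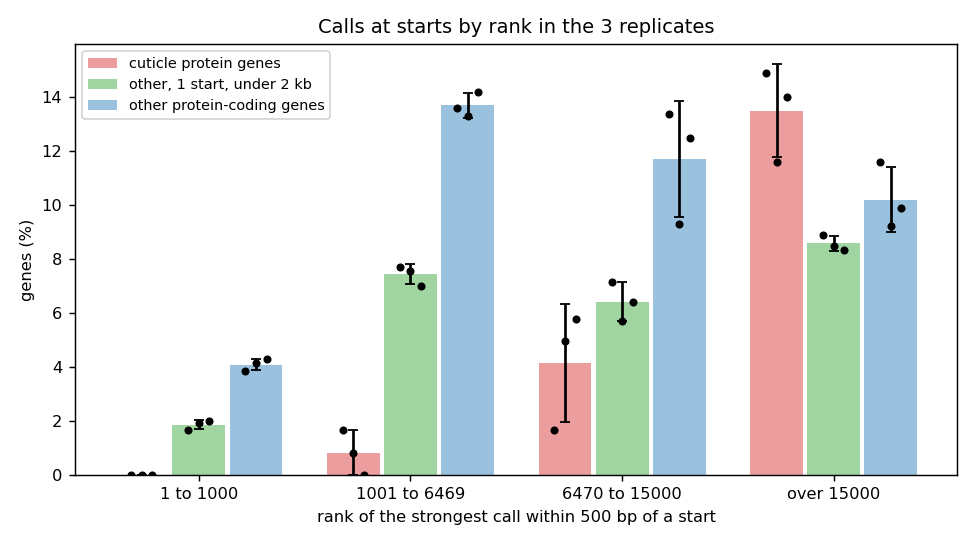
Share of genes (%, vertical axis) by the rank of the strongest call within 500 bp of a start (horizontal axis, 4 rank classes) in the 3 replicates, for cuticle protein genes, other protein-coding genes and other short genes with 1 start. Bars are means and points are replicates; cuticle genes are at 0% for ranks 1 to 1000 and at 13.5% beyond rank 15000, where the other genes are at 10.2%.

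Calls present in all 3 replicates were rare at cuticle gene starts. Of the 121 genes, 76 (62.8%) had no call of any rank within 500 bp in any replicate, against 44.5% of the other genes. A call was present in 1 replicate at 26 genes (21.5%, against 16.7% of the others) and in 2 replicates at 16 (13.2%, close to 13.9% of the others). It was present in all 3 replicates at 3 genes, Cpr12A, Cpr78Cc and Edg91, which is 2.48%, where the share of all protein-coding genes was 24.7%. The replicates together held 67 gene and replicate pairs with a call, of which 49 ranked beyond 15000, with a median signal of 14.5. Upstream of the start lay 46 of these calls and 21 lay at it or downstream, counting the strongest call of each pair. The same split was not computed for all protein-coding genes, so it is not read as a trait of the cuticle genes.

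Edg91, an ecdysone-dependent gene of the epidermis, had weak calls at nearly the same place in all 3 replicates. Its call ranked 22372 in replicate 1, 10942 in replicate 2 and 28207 in replicate 3, with signals of 13.8, 17.9 and 12.1, below the list's median in replicates 1 and 3 and above it in replicate 2. The 3 summits lay 168, 134 and 137 bp upstream of the start, and the pooled list had a call there at rank 14746. At Cpr78Cc, a Rebers-Riddiford family gene, the strongest calls did not all share a place. The summit was 130 bp upstream in replicate 1, at rank 21339. In replicates 2 and 3 the summits lay close together, 481 and 440 bp downstream, at ranks 15521 and 13458. Weaker calls at that start were not compared. Edg84A, the FTZ-F1 target, had no call in replicate 1, one 48 bp downstream at rank 13655 in replicate 2 and one 109 bp upstream at rank 16856 in replicate 3. The Tweedle gene TwdlT had calls at rank 24458 in replicate 1 and 18368 in replicate 3 and none in replicate 2, and Pcp, the pupal cuticle gene, had none in any replicate. Cpr73D, which has an IDR peak farther downstream, had start calls at rank 7675 in replicate 1 and 6962 in replicate 2.

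The upstream stretches of Edg91 and Edg84A are shown because these genes carry a TATAAA match close to the start but hold at most weak calls there, and because Edg84A had the single match among the cuticle genes to the nuclear receptor half-site AAGGTCA. Each is the 250 bases before the start in the gene's own direction, from the NCBI RefSeq Release 6 genome (dm6), with motif matches in capitals. Edg91 is chr3R:17611512-17611761 on the minus strand, with TATAAA 30 bases before the start. Edg84A is chr3R:6684195-6684444 on the plus strand, with TATAAA 32 bases and the half-site, read on the opposite strand as TGACCTT, 100 bases before the start.
Edg91 upstream: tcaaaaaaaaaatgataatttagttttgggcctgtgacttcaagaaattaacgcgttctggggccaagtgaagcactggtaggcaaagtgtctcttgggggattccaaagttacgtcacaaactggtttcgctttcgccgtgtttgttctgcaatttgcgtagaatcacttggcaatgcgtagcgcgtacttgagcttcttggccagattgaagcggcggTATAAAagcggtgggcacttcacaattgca
Edg84A upstream: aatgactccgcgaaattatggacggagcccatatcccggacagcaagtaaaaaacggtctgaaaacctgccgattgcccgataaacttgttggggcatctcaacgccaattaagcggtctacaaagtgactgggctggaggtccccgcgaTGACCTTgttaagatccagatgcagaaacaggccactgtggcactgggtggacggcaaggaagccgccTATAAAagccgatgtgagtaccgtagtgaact

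**Figure D2:**
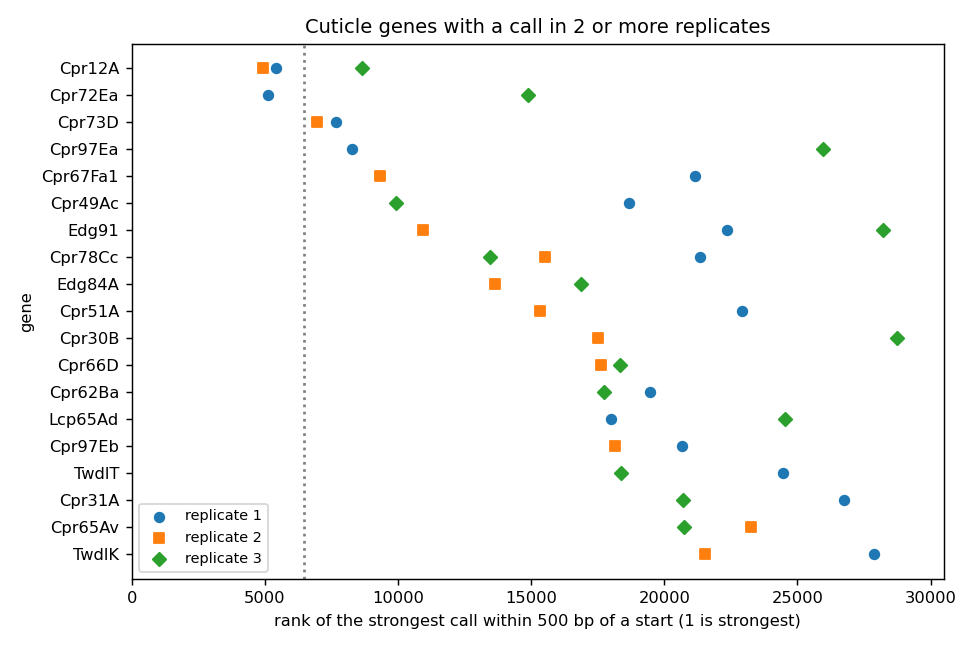
Rank of the strongest call within 500 bp of a start (horizontal axis, 1 is strongest) for each cuticle gene with a call in 2 or more replicates (vertical axis), with 1 point per replicate and a dotted line at rank 6469. Points left of the line are those of Cpr12A in replicates 1 and 2 and Cpr72Ea in replicate 1; the other calls spread up to the end of the lists.

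Away from the starts the difference narrowed. The median cuticle gene start was 11610 bp from the nearest IDR summit, with quartiles of 4747 and 21790 bp. For the other genes the median was 7179 bp (1715 and 18000 bp) and for the short single-start genes 9366 bp (3423 and 22520 bp). Using the strongest 6469 calls of each replicate in place of the IDR set, the cuticle gene median was 11570, 12980 and 13000 bp, a mean of 12520 ± 819 bp (SD, n = 3), and that of the other genes 6923, 6900 and 6833 bp. The replicates of the groups did not overlap. Within 5 kb there was a summit for 25.6% of the cuticle genes and 41.4% of the others, within 10 kb for 46.3% and 58.8%, and within 20 kb for 68.6% and 77.5%. For the short single-start genes these shares were 33%, 51.9% and 71.8%, nearer to the cuticle genes. Farther out, cuticle and short genes changed order, with 75.2% against 74.8% within 22387 bp and 87.6% against 90% within 50119 bp. Summits were also fewer in the wider span of a gene with 20 kb on either side. It held a mean of 1.54 summits for cuticle genes, 2.76 for other genes and 2.22 for short single-start genes. None was present for 29.8% of the cuticle genes, 20.4% of the others and 27.4% of the short genes. The span includes the gene body, so it is wider for long genes, and the part of gene length in the contrast with other genes was not tested. Neighbouring cuticle genes share their surroundings, so these 121 distances are not independent.

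The families spread over different distances. The 70 Cpr genes, the largest Rebers-Riddiford group, ranged from 210 to 74882 bp with a median of 8916 bp. The 15 Lcp genes had a shorter median, 5970 bp, but none was nearer than 2151 bp and the larval cuticle gene Lcp1 was farthest, at 31383 bp. The 7 Ccp84 genes, a group of cuticle genes inside the Antennapedia homeobox complex, ranged from 11970 to 29326 bp, the last being Ccp84Aa. Among the ecdysone-dependent genes Edg78E was 4283 bp, Edg91 6927 bp and Edg84A 9687 bp from a summit. Pcp, at chr2L:7021682-7022470, was 2449 bp from one of rank 3120 with a signal of 195. The 25 Twdl genes had the longest median, 22520 bp, with TwdlT at 8356 bp, and 12 of the 15 cuticle genes more than 50 kb from a summit were Twdl genes. Those 12 are neighbours in 1 cluster, TwdlM to TwdlD, and share 1 summit-free stretch. The other 13 Twdl genes ranged from 3711 to 22520 bp with a median of 9355 bp, near that of the Cpr genes, so the long Twdl median rests on that locus. The 3 farthest of all were TwdlK at 85650 bp, TwdlJ at 84456 bp and TwdlO at 84355 bp.

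**Figure D3:**
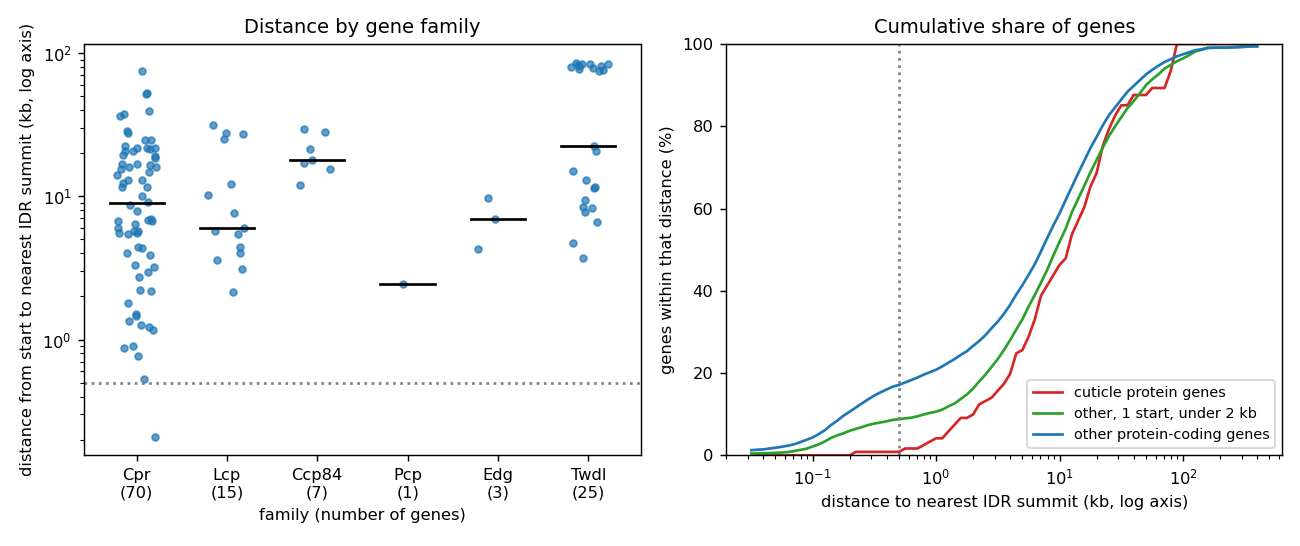
Left, distance from the start to the nearest IDR summit (kb, log axis) for each cuticle gene by family, with a line at the family median and a dotted line at 500 bp. Right, cumulative share of genes (%) within a given distance (kb, log axis) for cuticle genes, other genes and other short single-start genes. The cuticle gene curve starts lowest, with 0.826% at 500 bp, and draws closer to the others with distance. At 20 kb it reaches 68.6%, against 77.5% for other genes and 71.8% for short single-start genes, and beyond that it crosses the curve of the short genes.

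Within 2 kb of a start 12 cuticle genes (9.92%) had an IDR summit, where the share of all protein-coding genes was 26.5% and that of the short single-start genes 16.3%. All 12 were Cpr genes, and their peaks sat in intergenic sequence at 8 genes, in introns at 3 and in a non-coding exon at 1. Some lay nearer to the start of a neighbour. The Cpr51A summit lay in an intron of Cpr51A 1461 bp downstream of its start but 280 bp from the start of CG30197, and the Cpr73D summit, 869 bp downstream, lay 619 bp from the start of Ogdh, which encodes a subunit of the oxoglutarate dehydrogenase complex of the citric acid cycle. The Cpr51A peak was strong, at rank 1668, with replicate signals of 123, 57.7 and 110 (mean 96.6 ± 34.4, SD, n = 3). The Cpr73D peak ranked 4073, with replicate signals of 55.7, 30.8 and 47.1.

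Of the remaining summits, Cpr47Ec had one 895 bp downstream of its start at rank 5652, with replicate signals of 51.5, 37.4 and 25.8. Cpr49Ac had one 1343 bp upstream at rank 4231, with 52.0, 39.7 and 53.4, and Cpr62Ba one in its intron, 770 bp from the nearest start, at rank 4051 with 71.9, 42.2 and 45.8. Cpr100A had one 1808 bp upstream at rank 4027, with 67.5, 40.3 and 47.0. These were found in every replicate, but in the lower part of the IDR set. Cpr78Cc had one 1506 bp downstream at rank 5347, in a non-coding exon or untranslated region at a place held by both CG11309 and lncRNA:CR45432. A call within 100 bp of it was found in replicate 2 alone, with a signal of 38.5. The Cpr65Av and Cpr65Aw genes shared a summit between them, at rank 5131.

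Peaks of high rank within 2 kb were found at 2 neighbouring genes, Cpr72Ea and Cpr72Eb, of a 4.74 kb cluster on chromosome arm 3L. The Cpr72Eb peak, chr3L:16364245-16364511, had its summit 530 bp upstream of the start, at rank 623 with a signal of 543. Its replicate signals were 199, 141 and 198 (mean 179 ± 33.3, SD, n = 3), at ranks 722, 645 and 589. The Cpr72Ea peak, chr3L:16361168-16361603, lay 1217 bp upstream of the start and just outside the cluster, at rank 928 with a signal of 442. Its replicate signals were 210, 103 and 128 (mean 147 ± 55.6, SD, n = 3), at ranks 652, 1071 and 1330. Both were called in all 3 replicates within 24 bp of the IDR summit. The strong call at the Cpr72Ea start in replicate 1 was a separate, weaker call nearer to the gene. The 151 bases centred on each summit are shown because these are the strongest peaks within 2 kb of any cuticle gene start, read from the NCBI RefSeq Release 6 genome (dm6), plus strand, with the 11 bases centred on the summit in capitals. They are chr3L:16364294-16364444, with 25.2% G or C, and chr3L:16361311-16361461, with 27.2%.
Cpr72Eb summit: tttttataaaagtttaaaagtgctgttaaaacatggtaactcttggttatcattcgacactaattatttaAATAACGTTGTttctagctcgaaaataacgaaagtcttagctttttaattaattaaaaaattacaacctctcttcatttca
Cpr72Ea summit: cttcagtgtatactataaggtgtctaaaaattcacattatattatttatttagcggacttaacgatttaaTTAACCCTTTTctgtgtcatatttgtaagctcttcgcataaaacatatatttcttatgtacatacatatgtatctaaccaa

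Cuticle genes lie in clusters, defined here as 3 or more of them with gaps of at most 20 kb. There were 15 such clusters with 87 genes, spanning 243 kb in all. Genes in clusters had a median distance to a summit of 10260 bp and the 34 others 13480 bp. An IDR summit lay inside 6 clusters and none inside 9. The 6 clusters held 7 summits, 6 between genes and 1 in an intron, at ranks from 623 to 5652. This is 28.8 summits per Mb of cluster against 48.8 per Mb over the chromosome arms. The strongest 6469 calls of the replicates gave 27.4 ± 4.73 per Mb in clusters and 48.8 ± 0.0577 over the arms (SD, n = 3), a difference larger than the spread between replicates. The cluster densities rest on only 8, 6 and 6 calls in replicates 1 to 3. The replicate spread does not cover the counting error of such small numbers, which was not computed, so a lower density is not established. For calls of any rank the densities were 201 ± 18.9 and 223 ± 3.79 per Mb, which differ by little more than the spread. Coding sequence made up 27.6% of the clusters and 17.1% of the arms, and its part in the difference was not tested.

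The largest cluster, from Lcp65Ag3 to Cpr65Az, has 17 genes in 31.2 kb at chr3L:6130386-6161589 and mixes larval (Lcp65A) with other Rebers-Riddiford family genes. It held 2 summits, both between genes. The one between Cpr65Av and Cpr65Aw lay 1270 bp upstream of Cpr65Av and 1169 bp downstream of the start of Cpr65Aw. It ranked 5131, with signals of 54.2 and 48.3 in replicates 1 and 2. No replicate 3 call lay within 100 bp of it. The other, at position 6155302, lay 3328 bp from the start of Cpr65Ay and 2075 bp from that of CG13297. It ranked 3290, with signals in replicates 1 and 3 (mean 80.4 ± 6.88, SD, n = 2). No replicate 2 call lay within 100 bp of it. Neither summit was thus matched within 100 bp in every replicate. Replicate 3 had 2 of its strongest calls inside the cluster, and only 1 of them was matched to an inner summit. The distance of the unmatched call from the inner summits was not examined. A missing match therefore does not show that replicate 3 lacked a call farther than 100 bp away. Distances in the cluster ranged from 1169 bp at Cpr65Aw to 10255 bp at Lcp65Ag3. The nearest summits outside were 35530 bp to the left, at CG10467 (rank 858), and 23581 bp to the right, at CG43293 (rank 1186). The 151 bases around the inner summits, printed like those above, are shown for their unlike composition: chr3L:6141169-6141319 has 21.9% G or C and chr3L:6155227-6155377 has 45%, the latter with a run of T at its centre.
Cpr65Aw summit: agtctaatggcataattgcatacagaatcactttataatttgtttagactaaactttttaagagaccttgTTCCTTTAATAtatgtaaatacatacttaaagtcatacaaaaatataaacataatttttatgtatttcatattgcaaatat
Cpr65Ay summit: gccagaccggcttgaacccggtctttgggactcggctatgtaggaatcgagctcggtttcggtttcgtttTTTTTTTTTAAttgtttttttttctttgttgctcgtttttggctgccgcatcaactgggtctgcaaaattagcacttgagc

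The cluster of Tweedle genes from TwdlM to TwdlD lay in the widest stretch without a summit around any of the 15 clusters. Its 12 genes fill 21.9 kb at chr3R:26619118-26641054. The nearest summit to the left was 76735 bp away (rank 1777, replicate signal 95.7 ± 61.4, SD, n = 3). It lay in a non-coding exon or untranslated region at a place held by both the cell polarity gene scrib and lncRNA:CR46084. The nearest to the right was 73320 bp away, 215 bp from the start of the proprotein convertase gene amon (rank 576, 189 ± 47.1). The summit-free stretch was 172 kb and ranked 69 in length among 6463 gaps between neighbouring IDR summits, whose median was 5855 bp and longest 848 kb. Even the permissive lists were nearly empty there, with 1, 1 and 0 calls inside the cluster in replicates 1 to 3. The calls in replicates 1 and 2 lay 355 and 324 bp upstream of TwdlK, at ranks 27896 and 21544. At least 83.1% of the 31-base words around each start of its genes were unique in the genome. The 250 bases before the TwdlK start, chr3R:26628725-26628974 on the minus strand, are shown as the start farthest from any summit. With 34.8% G or C they hold TATAAA, in capitals, 156 and 49 bases before the start.
TwdlK upstream: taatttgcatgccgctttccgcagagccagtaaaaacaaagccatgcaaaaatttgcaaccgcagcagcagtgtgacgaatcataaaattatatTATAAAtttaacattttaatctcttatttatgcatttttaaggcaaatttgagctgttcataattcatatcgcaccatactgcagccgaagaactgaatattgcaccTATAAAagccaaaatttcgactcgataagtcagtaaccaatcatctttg

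The ecdysone-dependent gene Edg84A and the 7 Ccp84 genes form a cluster of 20.5 kb at chr3R:6684445-6704903, between the homeobox genes lab and bcd. No IDR summit lay inside it. The nearest to the left was 9687 bp away in an intron of lab, at rank 6008 and with replicate signals of 56.3, 24.4 and 31.3, and the nearest to the right was 56081 bp away, 1518 bp from the start of bcd, at rank 5418. The 86.2 kb between them ranked 261 among the gaps. In contrast to the TwdlM to TwdlD cluster, 6, 6 and 4 calls of the permissive lists lay inside, but none in any replicate was among the strongest 6469. The chromosome arms held a mean of 223 calls of any rank and 48.8 of the strongest calls per Mb. Few strong calls would fall in 20.5 kb at that density, so their lack is not read as a trait of this cluster.

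**Figure D4:**
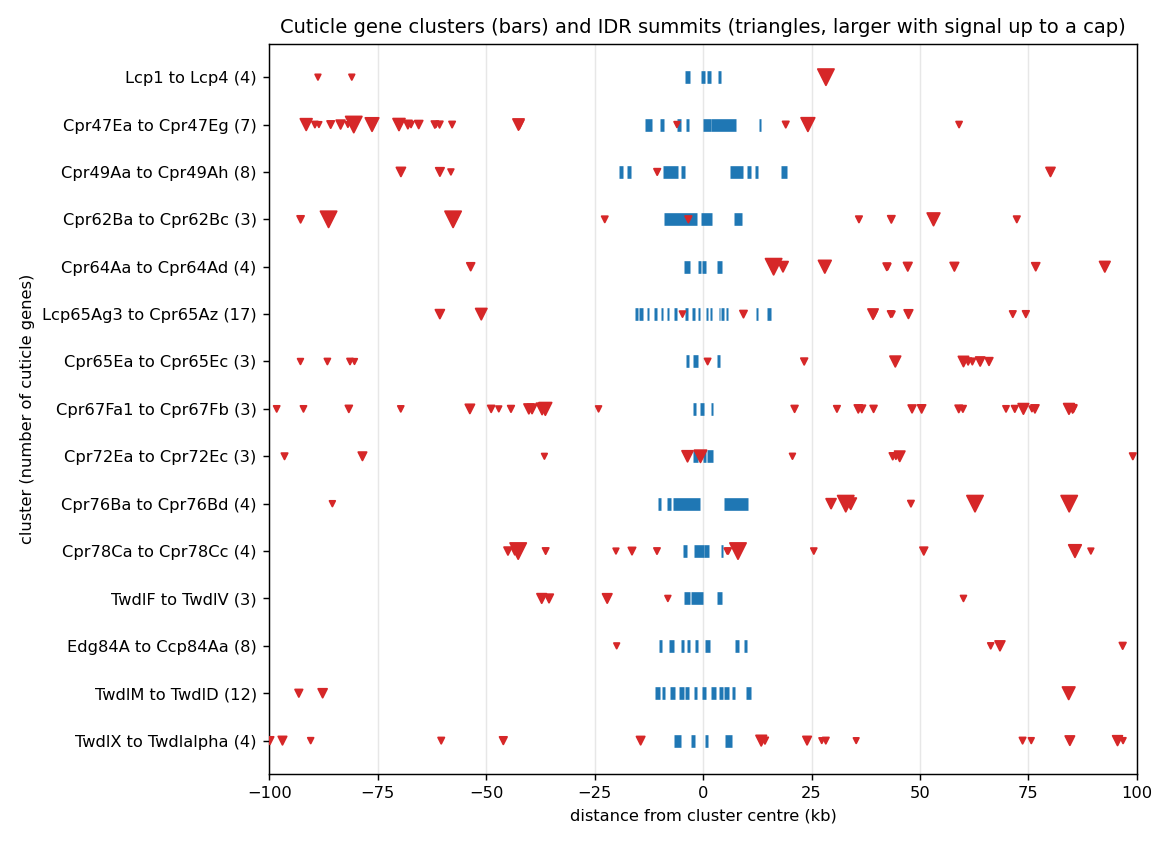
The 15 cuticle gene clusters (vertical axis, with the number of cuticle genes) drawn as bars on distance from the cluster centre (kb, horizontal axis), with IDR summits as triangles whose size grows with signal up to a cap. The row from TwdlM to TwdlD has no triangle within 73 kb of the cluster, while the row from Cpr78Ca to Cpr78Cc has its strong peak just right of the bar.

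Peaks at the edges of clusters were few. Of the 30 cluster sides 3 (10%) had an IDR summit within 5 kb outward, against 24.6% of the ends of other protein-coding genes. The share was 6.67% against 13.7% within 2 kb, 26.7% against 38.1% within 10 kb and 46.7% against 56.9% within 20 kb. With only 30 sides these counts are small, and no interval was computed for them. The gene ends were not matched for gene length either, so the sides are not set apart from the background. The median outward distance was 22660 bp against 15620 bp, with a range over the sides of 915 to 76794 bp. The 3 close sides were the left of Cpr72Ea to Cpr72Ec (1217 bp), the left of TwdlF to TwdlV (3711 bp) and the right of Cpr78Ca to Cpr78Cc (915 bp). The TwdlF summit ranked 5611 with replicate signals of 55.6, 21.5 and 44.6 and lay 163 bp from the start of CG34305 and 297 bp from that of the pseudogene TwdlU.

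The cluster from Cpr78Ca to Cpr78Cc, which includes Edg78E, had 3 IDR summits beyond its right edge. The first, 915 bp out, ranked 5347 and the second, 1141 bp out, ranked 5331. The third, 3397 bp out and 90 bp from the start of CG11309, ranked 40 of 6469 with a signal of 1510, the strongest peak inside or within 5 kb of any of these clusters. Its replicate signals were 545, 341 and 613 (mean 500 ± 142, SD, n = 3), at ranks 45, 67 and 24. A peak of this rank was thus present next to the cluster, while the starts of Edg78E and Cpr78Cc were 4283 and 1506 bp from any IDR summit.

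The summits flanking the clusters were described by their place and were not assigned to genes. Of the 30 nearest outward summits 12 (40%) lay within 500 bp of a protein-coding start, against 32.3% of all IDR summits. They fell in introns at 11 sides, between genes at 14 and in non-coding exons or untranslated regions at 5, and in coding sequence at 0. The strongest flanks were in an intron of ImpL2, which encodes a secreted insulin-binding protein, 11975 bp right of the cluster from Cpr64Aa to Cpr64Ad (rank 138, replicate signal 339 ± 71.4, SD, n = 3), and 127 bp from the start of the maltase gene Mal-A5, 24131 bp right of the larval cuticle genes Lcp1 to Lcp4 (rank 148, 323 ± 60.1). The Lcp1 to Lcp4 cluster, on arm 2R, was otherwise empty, with its left summit 76794 bp away in pdm3, a summit-free stretch of 109 kb (gap rank 178) and 0, 0 and 2 permissive calls inside. On arm 3L the Cpr76Ba to Cpr76Bd cluster lay in a similar stretch of 114972 bp (gap rank 163).

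The remaining clusters lay between these extremes. On arm 2R, Cpr47Ea to Cpr47Eg and Cpr49Aa to Cpr49Ah each held 1 of the 7 inner summits. On arm 3L, Cpr62Ba to Cpr62Bc and Cpr65Ea to Cpr65Ec each held 1 too, the latter at rank 4839 with a replicate signal of 43.9 ± 5.33 (SD, n = 3). Cpr67Fa1 to Cpr67Fb held none in a summit-free stretch of 45.2 kb. The Tweedle cluster TwdlX to Twdlalpha on the X chromosome held none, with flanking summits 7758 bp to the left (rank 2222) and 6771 bp to the right in goe (rank 1074). The other 14 protein-coding genes that start inside the clusters were also counted, and 0 of 14 had an IDR summit within 500 bp (Wilson 95% interval 0% to 21.5%). The interval covers the 17.0% of all protein-coding genes, so this count is not set apart from the background. The nearest was CG8501 at 1431 bp. Among them Acp65Aa, an adult cuticle protein gene, had calls of low rank at its start in all 3 replicates, at 14974, 21611 and 12377.

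The promoters of the cuticle genes often held a TATA box sequence. TATAAA, the core of the TATA box, was found on either strand from 250 bases before to 50 after the start in 91 of 121 genes (75.2%, Wilson 95% interval 66.8% to 82.0%). Of all promoters of that length 45.8% hold it, and of those of other short single-start genes 51.7%. In the shorter window from 100 bases before to 50 after the start the shares were 71.9% of cuticle genes and 23.9% of all. By family it was present in 49 of 70 Cpr, 12 of 15 Lcp, 6 of 7 Ccp84, the Pcp, all 3 Edg and 20 of 25 Twdl genes. The GAGA element GAGAGAG was in 0.826% of the cuticle promoters against 5.86% of all, and TATCGATA, the core of the DNA replication-related element, in 0.826% against 9.36%. The nuclear receptor half-site AAGGTCA, which FTZ-F1 binds, was in 0.826% against 2.11%, the 1 gene being Edg84A. All were searched on both strands, and no motif overlaps another in letters. The overlap of these motifs with the lack of peaks was not tested.

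Base composition and coding sequence near the start also differed from other genes. Within 100 bp of the start the median G or C content was 45.8% for cuticle genes, 41.3% for other genes and 39.8% for short single-start genes, while around the IDR summits it was 33.3%. Coding sequence covered a median of 33.6% of the window of 500 bp on either side of the start, against 29.5% for other genes and 39.6% for short ones. For classes of coding content, summits were counted at 1 start per gene, that of the window, and not at any annotated start. Fewer of the other genes were therefore called than the 17.1% given above. Among genes with 20% to 40% of the window coding, 1 of 69 cuticle genes (1.45%) and 13.1% of other genes had an IDR summit at that start. With over 40% coding it was 0 of 23 and 8.32%, with up to 20% it was 0 of 22 and 21.1%, and with none 0 of 7 and 19.9%. The share of cuticle genes was thus below that of the others in each class of coding content, at small numbers in the classes of 23, 22 and 7 genes. No interval was computed for these classes, and the other genes were not matched for length or number of starts. Repeats limit a few genes: 102 of 121 had at least 95% unique 31-base words around the start, and 4 were under 50%, Lcp65Ab1 and Lcp65Ab2 at 9.58%, Cpr65Ax1 at 23.6% and Cpr65Ax2 at 27.9%. These 4 lie in the Lcp65Ag3 to Cpr65Az cluster, and a lack of calls at their starts cannot be told apart from a lack of uniquely mapped reads. In the same cluster Lcp65Ag1, Lcp65Ag2, Lcp65Ag3 and Lcp65Aa were at 59.2%, 61.5%, 62.4% and 67.7%, so the limit reaches them in part.

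Other genes of cuticle making and its control were counted the same way. A list of 27 genes of cuticle formation outside the symbol rule includes cuticle protein genes with other symbols, such as Acp65Aa. Of these 27 genes 3 (11.1%, Wilson 95% interval 3.85% to 28.1%) had an IDR summit within 500 bp of a start. They were the chitin synthase gene kkv (rank 4174), mmy, which encodes the enzyme that makes the sugar donor for chitin (rank 3031), and the chitinase gene Cht7 (rank 920). Of 9 tanning genes 1 had one (11.1%, 1.99% to 43.5%), speck, which encodes an arylalkylamine N-acetyltransferase (rank 5024). Both intervals cover the 17.0% of all protein-coding genes, so neither list stood apart from the background. Of 16 transcription regulators of the prepupal ecdysone cascade 8 had one (50%, 28% to 72.0%), and 54.2% ± 3.61 (SD, n = 3) did so among the strongest calls of a replicate, with a median distance of 400 bp. The shares of all genes were 17.0% in the IDR set and 17.3% to 18.3% among the strongest calls. These were EcR (rank 5524) and usp (3751), which encode the ecdysone receptor pair, the early genes br (2814), Eip74EF (4039) and Eip75B (407), the nuclear receptor gene Hr78 (606), Eip93F (1943) and the epidermal regulator grh (912). The ribosomal protein genes, as a list unrelated to cuticle, stood at 60.9% (50.7% to 70.2%), with 57.2% ± 13.7 over the replicates. The interval of the ecdysone regulators lay above that of the cuticle protein genes, whereas that of the other cuticle formation genes overlapped it. Regulators are long genes with several starts, and the lists were not matched for length.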

How the data were processed

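ChIP-seq peak lists of 3 biological replicates were read as the authors deposited them, on build dm6 per the file headers and names. Each call has a signal value, deposited without a stated scale, a significance on the −log10 scale, deposited beside it and used to describe the lists only, and a summit offset in bp. Chromatin was sheared to 200 to 800 bp, per the labels. The sources used here do not give the aligner, peak caller, control correction, IDR threshold, treatment of repeats or read depth, so a signal has no counting error and its SD over replicates may include differences in scale. The dm3 lists were not used. The labels number the biological replicates without describing separate collections, so their spread may be partly technical.

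Gene starts came from Ensembl release 115, whose chromosome lengths equal those of dm6, and sequence from the NCBI RefSeq Release 6 genome. A gene counted as called when a summit lay within 500 bp of any annotated start, except in the classes of coding content, which used 1 start per gene. Replicate calls were matched to IDR summits within 100 bp. "Strongest" calls are the first 6469 by signal in a list. Clusters join 3 or more members with gaps of at most 20 kb. Wilson 95% intervals, where given for a share, treat genes as independent. No p-value was computed. The members and lists were chosen with earlier results of these data known. Named were all members with a summit within 2 kb, a strong replicate call or calls in all 3 replicates, the 3 farthest, 7 members picked by name, cluster ends, neighbours of cluster peaks and called genes of the comparison lists. The distance and window code was tested on simulated data. A planned search of protein sequences for the Rebers-Riddiford pattern was not run. Python 3.11.15, numpy 2.4.6, pandas 2.3.3, scipy 1.17.1 and matplotlib 3.10.9 were used.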

Additional observations from a re-analysis of the deposited data

How the results depend on the processing

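The low share of cuticle genes with a summit at a start held its direction against other genes under every window and set tried. The count of 1 became 0 at 200 bp, 5 at 1000 bp and 12 at 2000 bp, 0 with the stronger 3234 summits, 21 with every call of the pooled list (17.4% against 38.1% of other genes), 0 when a strongest call was asked of every replicate, and 2 when pseudogenes were counted, an alternative chosen after seeing the data. Keeping summits supported by the other replicates when each replicate was left out in turn gave 0 to 1. The median distance of 11610 bp was 10750 bp from the gene body, 34310 bp with the stronger 3234 summits, 12980 and 13000 bp with the strongest calls of replicates 2 and 3, 12800 bp with 1 value per cluster or isolated gene, and 14970 to 23350 bp with each replicate left out, the last without replicate 1. The sets left then hold 4394 to 4476 summits, and the medians of the other genes were 9985 to 10270 bp; the cause of the range among cuticle genes was not tested. The share with a strong call was 4.41% at 1000 bp and 0.413% to 1.24% with each replicate left out. That with any call was 7.99% at 200 bp, 30.0% at 1000 bp and 17.8% to 19.0%. Clusters with a summit inside fell from 6 to 1 with the stronger summits and were 4 to 6 with each replicate left out. Sides with a close summit were 8 at 10 kb and 2 to 3 with each replicate left out. Searched on the gene strand alone, the nuclear receptor half-site was found in 0 members. TATAAA stayed at 71.9% and 72.7% of members from 100 bases before to 50 after the start and on the gene strand alone, but the share of all promoters was 23.9% and 32.1% in place of 45.8%, so the size of that contrast depends on the window and strand. In the shorter window all promoters with the half-site were 0.938% in place of 2.11%, beside an unmoved 0.826% of members. For the members' own values, the other alternatives, 39 of 66, stayed within the spread or within 1.5 times. No paired analysis was possible because there is 1 group. Unknown depth limits every statement on missing calls.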
